A study of Mus musculus with 6 samples.

Results

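The genes of 6 BMP ligands (*Bmp2*, *Bmp3*, *Bmp4*, *Bmp5*, *Bmp6* and *Bmp7*) and of 4 BMP receptors (*Bmpr1a*, *Bmpr1b*, *Bmpr2* and *Acvr1*) were examined in osteoblasts (OBs) sorted from bone that BMP-2 had induced. The 10 genes were taken by symbol, without use of their values, from the 23284 genes listed, and all 10 had values above 0 in all 6 samples. The OBs came from male *Col2.3*-ECFP mice aged 12 to 16 weeks, in which a type I collagen promoter fragment drives cyan fluorescent protein in OBs, with 3 samples from day 10 and 3 from day 14 of the implant. Every mouse carried a subcutaneous collagen sponge with 2.5 μg of recombinant human BMP-2. Dead cells and blood-lineage cells bearing CD45 were excluded, and ECFP+ cells were collected by flow cytometry after 1 collagenase digestion on day 10 and 2 on day 14, so that digestion and day cannot be told apart. The titles place the later samples on day 14, whereas their descriptions give days 14, 15 and 16 for replicates 1, 2 and 3. The labels call the samples biological replicates without giving the number of mice in each.

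BMPs are secreted dimers of the TGF-β superfamily. They bind a complex of type I and type II serine/threonine kinase receptors on the cell surface. Within the complex, the type II receptor activates the type I receptor, which phosphorylates SMAD1, SMAD5 and SMAD9, and these enter the nucleus with SMAD4. In bone, BMPs direct mesenchymal cells towards cartilage and bone, and an implant of BMP-2 is sufficient to induce bone at an ectopic site. The implanted factor was a protein, while the values below are those of the RNA of the mouse's own genes.

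The authors deposited 1 FPKM value per gene and sample, that is, fragments scaled to transcript length and to the mapped total, so that levels of different genes can be set side by side. Mapped reads, estimated from the steps between low FPKM values, ran from 4526731 to 7752381 per sample, and 3 reads on a kilobase of usable sequence then amount to between 0.387 and 0.663 FPKM. These floors cover counting error only. The 10 OB markers of the list used were above 0 in every sample, and *Col1a1* was at 14151 FPKM or more in each. Replicate 2 of day 14 differed from the other day 14 samples in cartilage genes. *Col2a1* was at 688 FPKM there, against 12.1 FPKM in replicate 1, 8.75 FPKM in replicate 3 and from 189 to 373 FPKM on day 10. Over the list of 11 chondrocyte markers, mean log2(FPKM + 0.1) was 5.16, 4.69 and 4.31 on day 10 and 2.13, 5.56 and 1.52 on day 14. By this list, replicate 2 lay nearer to day 10 than replicates 1 and 3 did. Several values that rest on replicate 2 of day 14, but not all, are given with and without it. In sorted populations of this kind, fewer cells of a type and less RNA per cell cannot be told apart. Days were compared with limma on log2(FPKM + 0.1) over 19526 genes with a mean FPKM above 0.1, with Benjamini-Hochberg adjustment over all of them, and log2 fold changes below are those of FPKM + 0.1, day 14 against day 10.

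By mean level over the 6 samples, the order was *Acvr1* (23.2 FPKM), *Bmpr1a* (18.9), *Bmp2* (10.1), *Bmp3* (9.40), *Bmpr2* (3.03), *Bmp4* (2.09), *Bmp5* (1.13), *Bmpr1b* (1.11), *Bmp7* (0.937) and *Bmp6* (0.584 FPKM). *Acvr1* ranked 2404 and *Bmp6* ranked 12776 of the 23284 genes. The ranges of the 6 samples overlapped between every pair of neighbours in this order. *Bmpr1a* was above *Bmp2*, and *Bmp3* above *Bmpr2*, in 5 of 6 samples each, whereas *Bmp2* was above *Bmp3* in only 2 of 6. The higher mean of *Bmp2* over *Bmp3* came from replicate 2 of day 14. Without that sample, 6 of the 10 genes kept their place in the order.

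**Figure D1:**
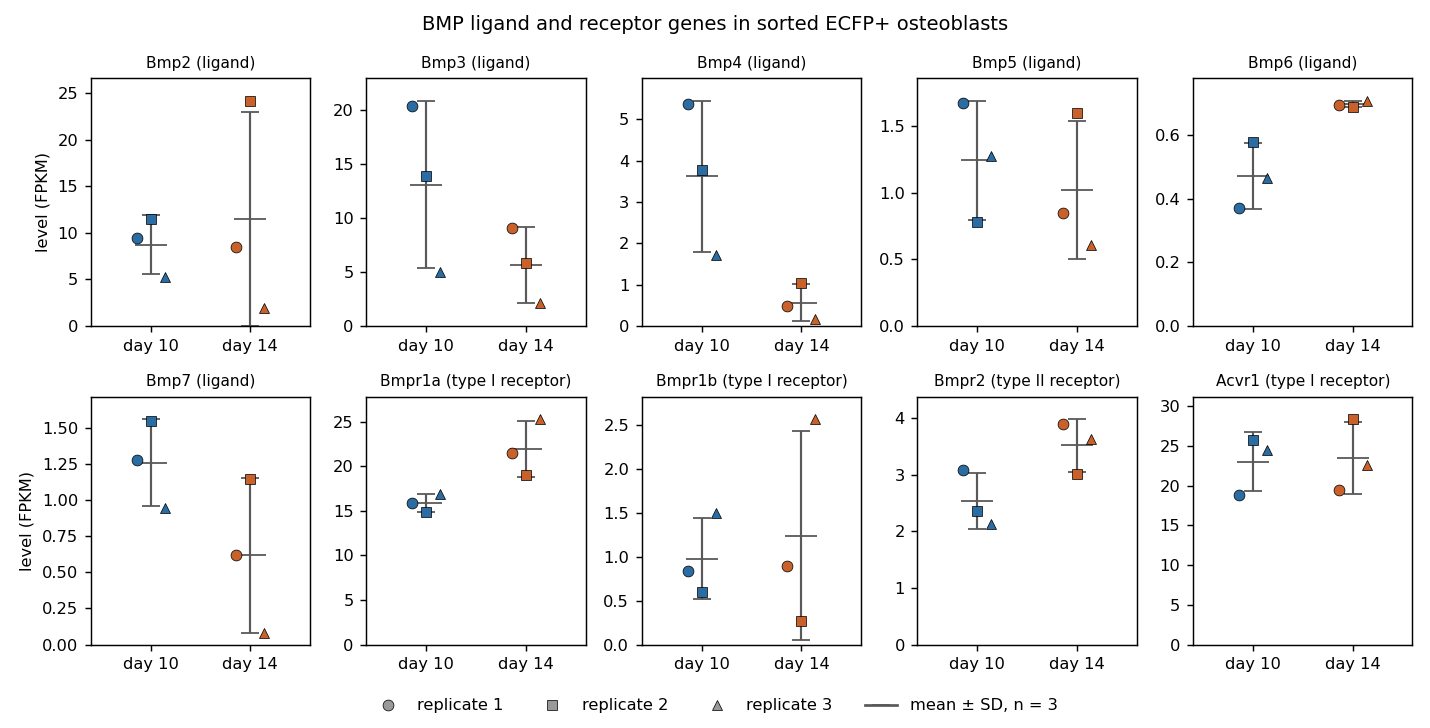
Level in FPKM (vertical axes, starting at 0) of each BMP ligand and receptor gene on day 10 (blue) and day 14 (orange), with 1 symbol per replicate and the mean ± SD (n = 3) in grey. The days do not overlap for *Bmp4*, *Bmp6* and *Bmpr1a*, and *Bmp2* on day 14 runs from 1.90 to 24.2 FPKM.

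No BMP ligand or receptor gene passed an adjusted p of 0.05 in limma (0 of 10), against 0.0154% of all genes tested. An unadjusted p under 0.05 was seen for 2 of the 10, *Bmp4* (lower on day 14) and *Bmpr1a* (higher on day 14), against 10% of all genes tested. A fold change over 2 was seen for 3 of the 10, namely *Bmp3*, *Bmp4* and *Bmp7*, all lower on day 14, against 13.6% of all genes tested in either direction and 8.39% lower on day 14. The days did not overlap for 3 of the 10 (*Bmp4*, *Bmp6* and *Bmpr1a*), against 14.3% of all genes tested (7.59% higher and 6.67% lower on day 14). For 3 samples against 3, the smallest p of a two-sided exact permutation test is 0.1, and these 3 genes reached it.

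**Figure D2:**
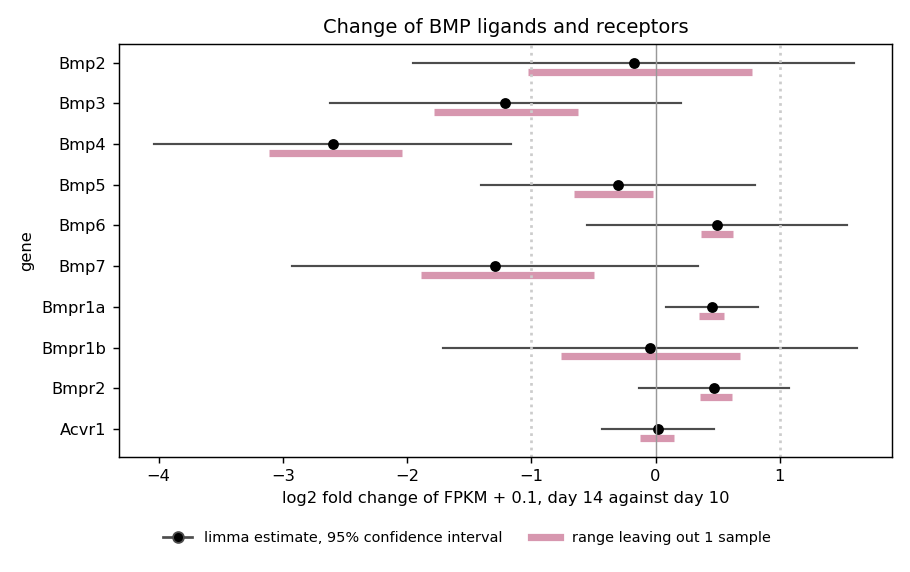
Log2 fold change of FPKM + 0.1, day 14 against day 10 (horizontal axis), for each gene, with the limma estimate (dot), its 95% confidence interval (line) and the range obtained when each sample is left out in turn (red bar). Dotted lines mark a 2-fold change. The interval lies on 1 side of 0 for *Bmp4* (−4.04 to −1.16) and *Bmpr1a* (0.08 to 0.83).

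*Bmp4*, a close relative of *Bmp2* that is itself able to induce bone, showed the largest difference between the days among the 10 genes. Replicates 1, 2 and 3 of day 10 had 5.37, 3.76 and 1.72 FPKM, and those of day 14 had 0.490, 1.04 and 0.158 FPKM. Every day 14 sample was thus below every day 10 sample, with day 10 replicate 3 and day 14 replicate 2 closest to each other. The means were 3.62 ± 1.83 FPKM (SD, n = 3) and 0.562 ± 0.444 FPKM (SD, n = 3). On the log2 scale the fold change was −2.60 ± 0.63 (SE), and limma gave an unadjusted p of 0.00297 and an adjusted p of 0.305, and *Bmp4* ranked 182 of 19526 genes tested by p.

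Few reads lay behind the later values of *Bmp4*. If all its reads fell on its longest coding transcript, they numbered 48.4, 38.4 and 24.6 in the day 10 samples and 4.1, 11.3 and 2.0 in the day 14 samples. The log2 fold change stayed between −3.11 and −2.04 when each sample was left out in turn. Without replicate 2 of day 14 it was −3.11, with an adjusted p of 0.0767 from limma, in a fit in which 0.386% of all genes tested had an adjusted p under 0.05. In replicate 2 of day 14 the summed FPKM of the 10 OB markers (53749) lay between the lowest and the highest day 10 sample. Most of this sum was *Col1a1* (21088 FPKM), *Col1a2* (14525 FPKM) and *Ibsp* (15632 FPKM), so it says little about the other markers. Among the 10 markers, *Sp7* was at 27.9 FPKM in this sample, below its day 10 range of 40.1 to 73.7 FPKM. *Alpl* was at 1300 FPKM, above its day 10 range of 809 to 1129 FPKM. Each of the remaining markers lay within its own day 10 range. The part of cell makeup in the *Bmp4* values was not tested.

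*Bmp4* lies on chromosome 14 of mm10, from 46383520 to 46390669 on the minus strand. The other ligand genes lie apart from it, *Bmp2* at chr2:133552159-133562885 (+), *Bmp3* at chr5:98854415-98884396 (+), *Bmp5* at chr9:75775364-75900310 (+), *Bmp6* at chr13:38345107-38500302 (+) and *Bmp7* at chr2:172868012-172940321 (−), and the receptor genes are *Bmpr1a* at chr14:34410734-34503341 (−), *Bmpr1b* at chr3:141837136-142169425 (−), *Bmpr2* at chr1:59763400-59879014 (+) and *Acvr1* at chr2:58388644-58567157 (−), all protein-coding. Of the 10 genes, 7 had an entry in the RefSeq promoter table (GRCm38.p6), and *Bmp2*, *Bmp3* and *Bmp7* had none. The 250 bases before the start of *Bmp4* are printed because this gene differed most between the days, beside those of *Bmp5*, whose days overlapped and which is the other gene without a further annotated start upstream. Both read 5′ to 3′ on the strand of the gene, and capitals mark CG dinucleotides.
Bmp4, chr14:46390670-46390919 (−): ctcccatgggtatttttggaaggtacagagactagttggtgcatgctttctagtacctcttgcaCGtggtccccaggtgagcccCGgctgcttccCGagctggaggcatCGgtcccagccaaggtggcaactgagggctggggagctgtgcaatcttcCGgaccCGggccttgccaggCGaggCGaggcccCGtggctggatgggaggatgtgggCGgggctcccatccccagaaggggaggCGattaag
Bmp5, chr9:75775115-75775364 (+): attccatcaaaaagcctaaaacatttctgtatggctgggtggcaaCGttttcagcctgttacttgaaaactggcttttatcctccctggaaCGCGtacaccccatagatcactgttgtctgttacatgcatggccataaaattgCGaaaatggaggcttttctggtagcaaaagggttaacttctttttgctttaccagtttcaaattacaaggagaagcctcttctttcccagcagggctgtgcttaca
The *Bmp4* window holds 11 CG dinucleotides at 63.2% G and C, and the *Bmp5* window 4 at 42.8%, with a median of 52.4% over the 32851 windows in the table. Neither window holds, on either strand, the letters GGCGCC of a GC-rich SMAD element (present in 9.59% of all windows), TGTGGT of a RUNX core (14.0%) or TATAAA (12.4%).

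*Bmp3*, which encodes a BMP that is abundant in bone matrix and is known to oppose the action of osteogenic BMPs, was at 20.4, 13.9 and 4.99 FPKM in the day 10 samples. In the day 14 samples it was at 9.11, 5.80 and 2.09 FPKM. The lowest day 10 sample, replicate 3, lay below 2 of the day 14 samples, so that the days overlapped. Between the days, the log2 fold change was −1.21 (SE 0.62, 95% confidence interval −2.62 to 0.20), and limma gave an adjusted p of 0.571 for it. When each sample was left out in turn it ran from −1.79 without replicate 3 of day 10 (unadjusted p = 0.0144 from limma) to −0.63 without replicate 3 of day 14, and it was −1.66 without replicate 1 of day 14 (unadjusted p = 0.0471 from limma).

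*Bmp7*, the gene of osteogenic protein 1, was at 1.28, 1.55 and 0.948 FPKM on day 10, against 0.621, 1.15 and 0.0804 FPKM on day 14. The lowest value, that of replicate 3 of day 14, corresponds to about 1.9 reads, against 21.6 to 29.6 reads in the day 10 samples. Its log2 fold change was −1.29 ± 0.71 (SE), for which limma gave an adjusted p of 0.602. It was −0.49 without replicate 3 of day 14 and −1.89 without replicate 2.

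*Bmp2*, the gene of the factor implanted, was at 9.46, 11.5 and 5.28 FPKM on day 10, against 8.43, 24.2 and 1.90 FPKM on day 14. The highest and the lowest of the 6 samples were both of day 14, and the SD was 3.17 FPKM on day 10 and 11.4 FPKM on day 14. The log2 fold change was −0.18 (95% confidence interval −1.95 to 1.6), so a change of more than 2-fold in either direction is within the interval. It was −1.03 without replicate 2 of day 14. Its sign turned when replicate 3 of day 14 was left out (0.77) and when replicate 2 of day 10 was left out (0.055).

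*Bmp5*, known from the short-ear mouse for its part in shaping the skeleton, had 0.783 to 1.67 FPKM on day 10 and 0.610 to 1.6 FPKM on day 14, and its log2 fold change was −0.30 (95% confidence interval −1.40 to 0.80). *Bmp6*, known for iron regulation and for its presence in cartilage, had the lowest mean of the 10 over all samples, although *Bmp4* and *Bmp7* had lower means on day 14. The values of *Bmp6* were 0.371, 0.577 and 0.466 FPKM on day 10, against 0.695, 0.689 and 0.707 FPKM on day 14, so that all day 14 samples were above all day 10 samples. These values correspond to between 6.1 and 16.7 reads per sample, and the log2 fold change of 0.50 ± 0.46 (SE) had an adjusted p of 0.791 from limma.

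Of the 3 type I receptors, *Bmpr1b* was the lowest in every sample. *Acvr1*, the receptor gene in which activating mutations cause heterotopic bone in fibrodysplasia ossificans progressiva, was at 18.8, 25.8 and 24.5 FPKM on day 10, against 19.4, 28.3 and 22.6 FPKM on day 14. Its 6 values spanned a 1.5-fold range, the narrowest among the 10 genes, and the days were interleaved. On the log2 scale the fold change was 0.02 (95% confidence interval −0.43 to 0.47), an interval that does not reach a 2-fold change in either direction.

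*Bmpr1a*, the type I receptor through which BMP-2 and BMP-4 act in many tissues, was at 15.9, 14.9 and 16.9 FPKM on day 10, against 21.5, 19.1 and 25.3 FPKM on day 14. All day 14 samples were above all day 10 samples. The means were 15.9 ± 0.999 FPKM (SD, n = 3) and 22.0 ± 3.12 FPKM (SD, n = 3). Between the days, the log2 fold change was 0.46 ± 0.16 (SE), a 1.37-fold difference, with an unadjusted p of 0.0220 and an adjusted p of 0.407 from limma. The unadjusted p was 0.0820 without replicate 3 of day 14 and 0.0527 without replicate 1 of day 10, and 0.0133 without replicate 2 of day 14.

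*Bmpr1b*, the type I receptor best known from cartilage condensations and digits, was much lower, at 0.835, 0.602 and 1.5 FPKM on day 10, against 0.895, 0.263 and 2.56 FPKM on day 14. The lowest and the highest of these 6 values were replicates 2 and 3 of day 14. In every sample *Bmpr1a* exceeded *Bmpr1b*, by between 9.85-fold and 72.6-fold. The log2 fold change of *Bmpr1b* was −0.04 (95% confidence interval −1.71 to 1.62), and it was 0.68 without replicate 2 of day 14.

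*Bmpr2*, the type II receptor dedicated to BMPs, was at 3.09, 2.37 and 2.14 FPKM on day 10, against 3.91, 3.01 and 3.64 FPKM on day 14. The days overlapped by 1 pair of samples, since day 14 replicate 2 lay just below day 10 replicate 1. Its log2 fold change was 0.47 ± 0.26 (SE), for which limma gave an adjusted p of 0.609. It stayed between 0.36 and 0.62 when each sample was left out in turn. The summed FPKM of the 3 type I receptors was between 10.7 and 20.1 times that of *Bmpr2*. This ratio leaves out the type II receptors *Acvr2a* and *Acvr2b*, with means over the 6 samples of 4.30 and 0.663 FPKM. The coding transcript of *Bmpr2* is 12899 bases long, and how evenly the reads cover it was not tested.

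The levels of 4 ligands varied more between samples than that of any receptor. Over the 6 samples, the SD of log2(FPKM + 0.1) was 1.2 for *Bmp2*, 1.15 for *Bmp3*, 1.66 for *Bmp4* and 1.17 for *Bmp7*, against a median of 0.55 over all genes tested. The same SD was 0.23 for *Acvr1*, 0.29 for *Bmpr1a* and 0.33 for *Bmpr2*. It was 0.54 for *Bmp5*, 0.32 for *Bmp6* and 0.99 for *Bmpr1b*. No test was made of the difference between ligands and receptors.

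The summed FPKM of the 6 ligands was 38.6, 32.1 and 14.7 on day 10 and 20.2, 34.4 and 5.55 on day 14, in the order of the replicates. Replicate 3 of day 14 had the lowest sum. That of the 4 receptors was 38.6, 43.6 and 45.1 on day 10 and 45.7, 50.7 and 54.1 on day 14. Receptor and ligand sums were thus equal in replicate 1 of day 10 (ratio 1.00), while the receptor sum was 9.74 times the ligand sum in replicate 3 of day 14. *Bmp2* and *Bmp3* together made up between 70.0% and 87.0% of the ligand sum in every sample.

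The share of *Bmp4* in the ligand sum was 13.9%, 11.7% and 11.7% on day 10 and 2.42%, 3.01% and 2.85% on day 14. Within each day these shares lay close together, although the ligand sum itself varied more than 2-fold within both days. The day 14 shares rest on about 4.1, 11.3 and 2.0 estimated reads of *Bmp4*, so their closeness carries little weight. The ratio of *Bmp2* to *Bmp4* was 1.76, 3.05 and 3.06 on day 10 and 17.2, 23.3 and 12 on day 14. This ratio was looked at after the values had been seen. Like the shares, it contains the difference in *Bmp4* described above, and both are given without a test. *Bmp3* was the highest ligand in 4 of the 6 samples, and *Bmp2* was highest in replicate 3 of day 10 and in replicate 2 of day 14, where it made up 70.2% of the sum.

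**Figure D3:**
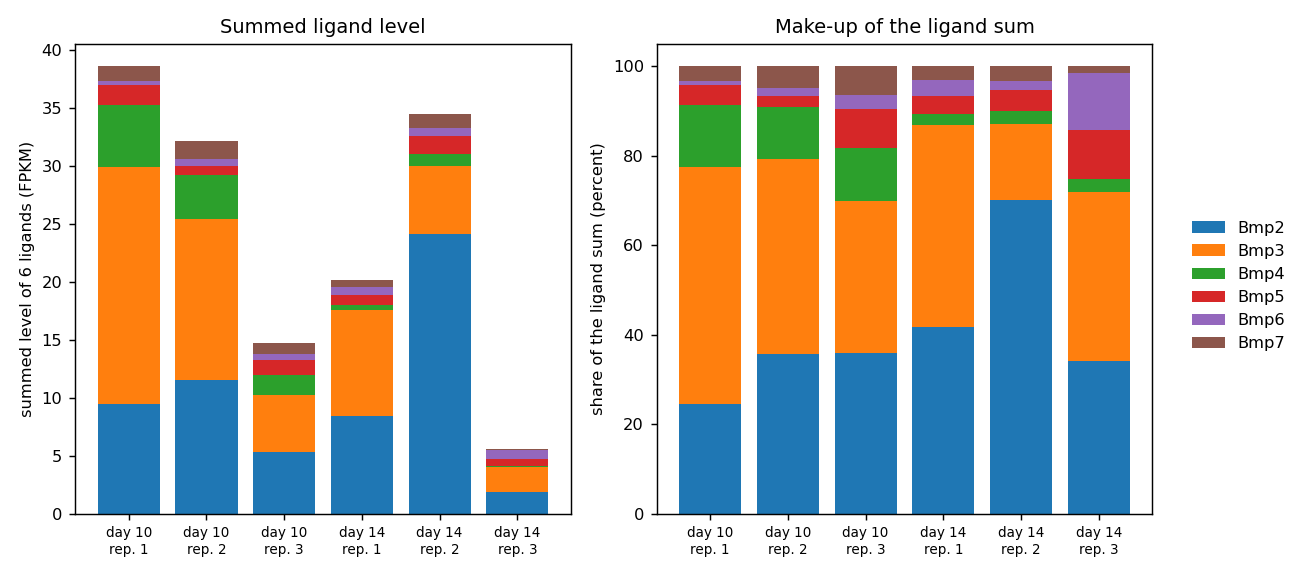
Left, level of the 6 BMP ligand genes stacked per sample (FPKM); right, the same values as a percentage of each sample's ligand sum. The *Bmp4* segment takes 11.7% to 13.9% on day 10 and 2.42% to 3.01% on day 14, and replicate 3 of day 14 has the smallest sum (5.55 FPKM).

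Cell-type markers differed between the same samples. In replicate 3 of day 14, 5 of the 6 ligands (*Bmp2*, *Bmp3*, *Bmp4*, *Bmp5* and *Bmp7*) had their lowest value, whereas 16.1% of all genes tested had their lowest value there, a count made after the values were seen. The same sample had the lowest summed FPKM of the 10 OB markers (26397, against 31110 to 77069 in the others) and of the 11 chondrocyte markers (182, against 227 to 2470). Most of the OB sum was *Col1a1*, *Col1a2* and *Ibsp*. The 8 myeloid markers summed to 549 FPKM in replicate 3 of day 14, of which *Lyz2* was 454 FPKM, against sums of 11.5 to 230 FPKM in the others. *Bmp2* was highest in replicate 2 of day 14, the sample with the highest chondrocyte sum (2470 FPKM). The part of these marker levels in the ligand values was not tested.

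Of the receptors, *Bmpr1a* and *Bmpr1b* were highest in replicate 3 of day 14. In replicate 2 of day 14 the myeloid sum was lowest. There, 2 of the 8 markers (*Emr1* and *Fcer1g*) were at 0 and *Ptprc*, the CD45 gene, was at 0.134 FPKM. *Bmpr1a* had its lowest day 14 value in this sample (19.1 FPKM), which was above the highest day 10 sample. Within day 14, *Bmpr1a* and the myeloid sum put the samples in the same order. Within day 10 they did not, as *Bmpr1a* was lowest (14.9 FPKM) where the myeloid sum was highest (134 FPKM). The part of the myeloid markers in the receptor values was not tested. The 8 endothelial markers summed to between 2.05 and 4.02 FPKM on day 10 and between 3.89 and 8.57 FPKM on day 14. The 6 osteoclast markers summed to between 428 and 654 FPKM per sample, most of it *Ctsk*, while *Calcr* was at 0.338 FPKM or less. The 6 pericyte and smooth muscle markers summed to between 317 and 676 FPKM, with *Acta2* as the main part.

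**Figure D4:**
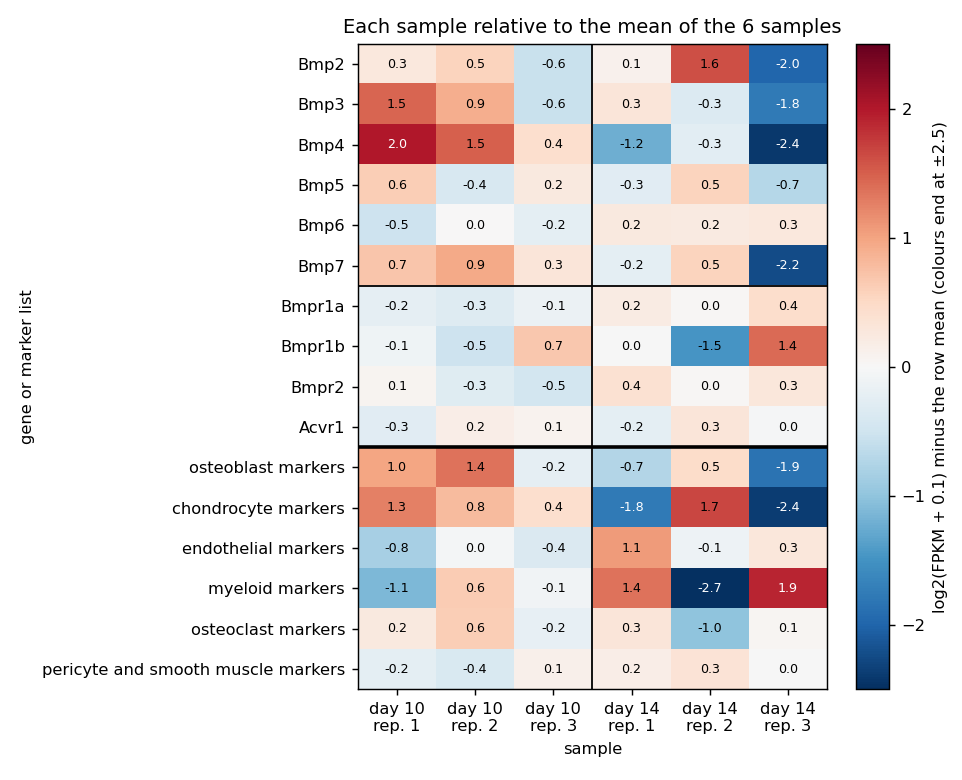
Log2(FPKM + 0.1) of each gene, and mean log2(FPKM + 0.1) of each cell-type marker list, minus the mean of the row over the 6 samples (colour and printed value; columns are samples). Replicate 3 of day 14 is low in *Bmp2* (−1.99), *Bmp3* (−1.77), *Bmp4* (−2.41), *Bmp7* (−2.24) and the osteoblast (−1.85) and chondrocyte (−2.38) lists, and *Acvr1*, *Bmpr1a* and *Bmpr2* stay between −0.45 and 0.44 in all samples.

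Other genes of the pathway were counted from lists of related ligands, receptors, co-receptors, SMADs, inhibitors, response genes and proteases. In limma no gene of these lists passed an adjusted p of 0.05, and for single directions the background was 5.6% of all genes tested with an unadjusted p under 0.05 and higher on day 14, and 4.4% lower. The median log2 fold change was −0.76 for the 6 ligands and 0.24 for the 4 receptors, beside −0.04 for all genes tested.

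Of 16 other BMP, GDF and activin ligand genes tested, 2 had such a p and were higher on day 14, and none was lower. *Inhba*, which encodes the subunit of activin A, was the most abundant at 162, 295 and 328 FPKM on day 10, against 364, 718 and 545 FPKM on day 14 (log2 fold change 1.06, adjusted p 0.362 from limma). *Gdf9* was at 0.676 ± 0.190 FPKM (SD, n = 3) and 2.21 ± 1.32 FPKM (SD, n = 3). Without replicate 2 of day 14, the counts were 4 higher and 3 lower, in a fit in which 7.01% of all genes tested had such a p and were higher and 5.99% were lower.

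Of the 8 other type I and type II receptors, 3 were higher with an unadjusted p under 0.05 and none was lower. They were *Acvrl1*, a type I receptor for BMP-9 and BMP-10 known from endothelium (7.09 ± 1.51 and 13.9 ± 4.70 FPKM, SD, n = 3), and the TGF-β receptors *Tgfbr1* (8.83 ± 0.782 and 12.4 ± 0.721 FPKM, SD, n = 3) and *Tgfbr2* (75.7 ± 19.1 and 140 ± 56.9 FPKM, SD, n = 3). *Acvr2a*, a type II receptor shared by activins and BMPs, was at 3.87 ± 1.05 and 4.73 ± 1.89 FPKM (SD, n = 3), a level near that of *Bmpr2*. Of the 5 co-receptors tested, *Rgmb* (log2 fold change 0.62) and *Tgfbr3* (0.80) had an unadjusted p under 0.05, and in both all day 14 samples were above all day 10 samples. *Neo1*, the receptor of RGM proteins, had the highest level of this list at 31.3 ± 3.28 and 40.4 ± 5.32 FPKM (SD, n = 3).

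Among the SMADs, *Smad1* was at 33.6 ± 3.62 and 35.4 ± 5.93 FPKM (SD, n = 3), and *Smad4*, the most abundant, at 34.9 ± 5.63 and 38.2 ± 6.34 FPKM (SD, n = 3). *Smad5* was lower, at 9.65 ± 1.32 and 9.84 ± 2.02 FPKM (SD, n = 3). Only *Smad9* of the 6 had an unadjusted p under 0.05, with 2.21, 1.09 and 1.27 FPKM on day 10, against 0.212, 0.784 and 0.274 FPKM on day 14 (log2 fold change −1.73, adjusted p 0.373 from limma). *Smad1*, *Smad5* and *Smad9* were described here because they are the SMADs that BMP receptors act on, and *Smad9* was singled out after its values were seen.

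Of 18 antagonists and inhibitors, 8 were higher on day 14 with an unadjusted p under 0.05 and 1 was lower, and without replicate 2 of day 14 the counts were 9 and 3 (7.01% and 5.99% of all genes tested in that fit). Those higher included *Fst*, *Chrdl1*, *Nbl1* and *Fstl1*. *Fst* encodes follistatin, which binds activins and, more weakly, several BMPs. It was at 31.4, 42.0 and 50.3 FPKM on day 10, against 91.0, 90.0 and 92.5 FPKM on day 14, a log2 fold change of 1.17 ± 0.19 (SE), for which limma gave an adjusted p of 0.193. *Chrdl1*, of the chordin family of extracellular BMP binders, was at 8.89 ± 2.55 and 19.5 ± 5.03 FPKM (SD, n = 3), and *Nbl1*, of the DAN family, at 124 ± 40.6 and 231 ± 41.5 FPKM (SD, n = 3). *Fstl1* had the highest level of the list (566 ± 205 and 956 ± 303 FPKM, SD, n = 3). The gene lower on day 14 was *Bambi*, a membrane decoy receptor without a kinase domain that is itself a BMP target, at 62.9, 44.3 and 27.6 FPKM on day 10, against 9.32, 26.5 and 4.83 FPKM on day 14.

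Of 14 response genes, 4 were lower with an unadjusted p under 0.05 and none was higher, with 6 lower without replicate 2 of day 14 (5.99% of all genes tested in that fit). They were *Id1*, *Dlx3*, *Dlx5* and *Sp7*. *Id1*, a direct SMAD target, was at 49.6, 36.4 and 41.6 FPKM on day 10, against 16.2, 35.9 and 16.1 FPKM on day 14, where replicate 2 stood near day 10. *Id3*, the most abundant response gene, was at 783 ± 104 and 632 ± 189 FPKM (SD, n = 3), with overlapping days. *Dlx3*, a homeobox gene of the OB lineage, had a log2 fold change of −2.51 (adjusted p 0.298 from limma), *Sp7*, the osterix gene, one of −2.34 (adjusted p 0.309) and *Dlx5* one of −1.91 (adjusted p 0.460). The days of *Dlx5* overlapped, with 9.84 FPKM in replicate 2 of day 14 against 7.56 to 9.88 FPKM on day 10. *Dlx5*, *Runx2* and *Sp7* are also OB lineage genes, so this list is not a measure of BMP signalling alone. The summed FPKM of the 10 OB markers, which hold *Sp7* and *Runx2* as well, was between 39833 and 77069 on day 10 and between 26397 and 53749 on day 14. Most of this sum was *Col1a1*, *Col1a2* and *Ibsp*, and its part in the values of the response genes was not tested. Of 6 proteases tested, *Pcsk6*, a proprotein convertase, had a lower mean on day 14 (116 ± 54.6 and 33.1 ± 27.1 FPKM, SD, n = 3). Its log2 fold change was −2.04, with an unadjusted p of 0.00894 and an adjusted p of 0.340 from limma. Its days overlapped, with 63.4 FPKM in replicate 2 of day 14 against 60.1 FPKM in replicate 3 of day 10. *Bmp1*, the procollagen C-proteinase, which despite its name is no BMP ligand, was the most abundant of the 6 at 357 ± 54.8 and 310 ± 21.9 FPKM (SD, n = 3).

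**Figure D5:**
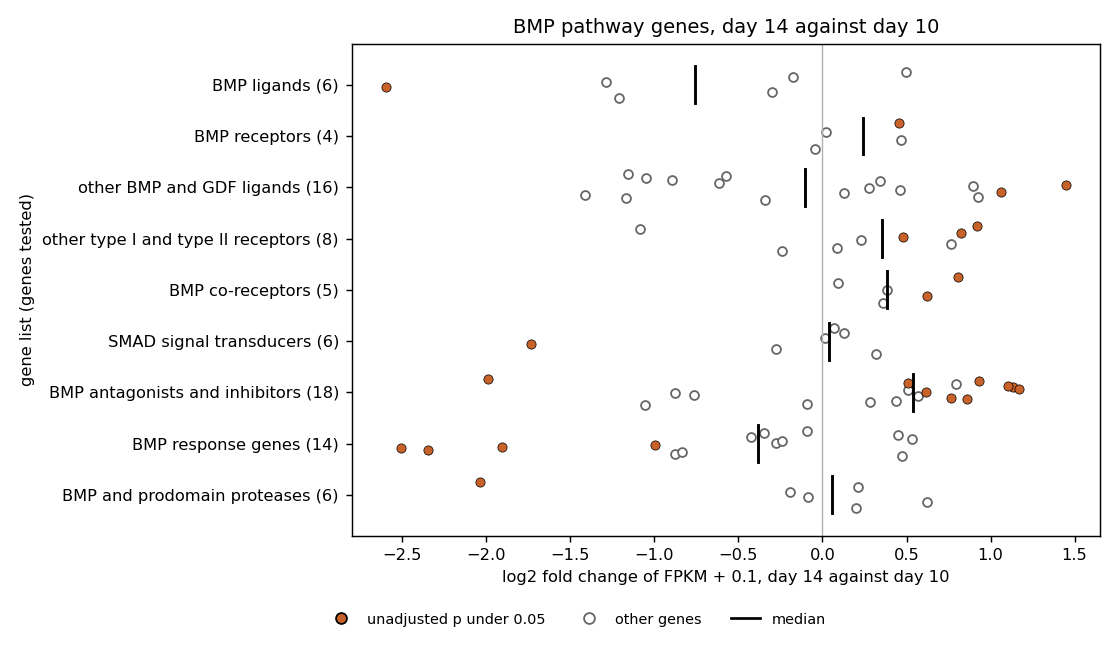
Log2 fold change of FPKM + 0.1, day 14 against day 10 (horizontal axis), of each gene tested in the BMP ligands, the BMP receptors and 7 lists of related genes; filled points have an unadjusted p under 0.05 from limma, and black bars are medians. The antagonists and inhibitors have 8 filled points to the right of 0 and 1 to the left, and the response genes 4 to the left.

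The genes most like the highest ligand and the highest receptor were found by the root mean square difference of log2(FPKM + 0.1) over the 6 samples, each gene centred on its own mean, among 11161 genes with a mean of at least 1 FPKM. For *Bmp2* they were *Sox8* (0.303), *Als2cl* (0.318) and *Pdk4* (0.331), beside a median of 1.14 over all genes compared. *Pdk4*, for example, was at 19.4, 18.9 and 6.01 FPKM on day 10, against 10.8, 24.8 and 2.57 FPKM on day 14. Its highest and lowest values fell in the same samples as those of *Bmp2*, which follows largely from its choice by likeness. For *Acvr1* they were *Usp34* (0.0519), *Tmem132a* (0.0557) and *Asna1* (0.0592), beside a median of 0.354. How often such close matches arise for other genes was not tested.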

How the data were processed

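RNA-seq of 6 samples (3 of day 10, 3 of day 14) was used. The authors aligned single-end reads of 75 bases against mm10 using TopHat2 2.0.13, Bowtie2 2.2.3 and SAMtools 0.1.19 and deposited FPKM per gene, computed with Cufflinks 2.2.1. The gene annotation and the handling of reads with several matches are not given in the sources used here. In the file of day 14 replicate 2, 25 symbols turned into dates were restored by position, and none of the 10 genes or the listed pathway genes is among them. FPKM are no counts, so limma 3.58.1 in R 4.3.3 (lmFit, eBayes with trend) was run on log2(FPKM + 0.1) for 19526 genes with a mean FPKM above 0.1. Without stated separate mice, p-values measure the spread between these samples. Single genes also had two-sided exact permutation tests (scipy 1.17.1). Mapped reads were estimated from 1977 genes with a single transcript in the annotation (1500 to 8000 bases long), using values no higher than 0.3 FPKM; the fragment length, 225 bases, was scanned for. From 74.9% to 79.3% of these values lay no more than 0.1 from a whole read number, so the estimates are approximate and no count test was run. Gene positions are from GENCODE vM21 (mm10) and count from 1.

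The genes and lists were chosen with earlier results of these data known. Beside the 10 genes, each list names its most abundant gene and up to 4 genes with the smallest unadjusted p under 0.05 at a mean of at least 1 FPKM; other genes named were chosen after their values were seen. Alternatives were another pseudocount (1 or 0.01), another filter, another scaling, another variance model, the replicate number as a block and leaving out each sample. The comparison was tested on simulated data.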

Additional observations from a re-analysis of the deposited data

How the results depend on the processing

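No gene of the 10 had an adjusted p under 0.05 in any of the 15 other fits. *Bmp4* kept its direction and an unadjusted p under 0.05 in all of them, and *Bmpr1a* lost the latter in 4 (without the mean-variance trend and without replicate 1 or 2 of day 10 or replicate 3 of day 14). Over all genes tested, limma called 3 at an adjusted p of 0.05, 6 were called with an ordinary linear model, and between 3 and 76 when 1 sample was left out, with 76 without replicate 2 of day 14. Of the 10 genes, 2 had an unadjusted p under 0.05, 1 without the mean-variance trend and between 1 and 3 with 1 sample left out, where 4.84% to 13.6% of all genes tested had such a p. The count over 2-fold was 3, and it was between 1 and 4 with 1 sample left out, with 1 without replicate 3 of day 14. Without replicate 2 of day 14, 6 genes kept their place in the order of levels, and between 6 and 10 did so over all 6 omissions.

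The direction turned for 3 genes. *Bmp2* was at 0.055 without replicate 2 of day 10, between −1.03 and 0.77 over all 6 omissions (0.77 without replicate 3 of day 14) and at 0.40 as a ratio of arithmetic means (log2). *Bmpr1b* was at 0.071 with a pseudocount of 1, at 0.28 without replicate 3 of day 10, between −0.76 and 0.68 over all omissions (0.68 without replicate 2 of day 14) and at 0.34 as a ratio of means. *Acvr1* was at −0.12 without replicate 1 of day 10 and at −0.12 without replicate 2 of day 14, within a range from −0.12 to 0.15 over all omissions. The cause was not tested. *Bmp6* (mean 0.584 FPKM) and *Bmp7* (mean 0.937 FPKM) had no value with a filter of a mean FPKM above 1.

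After subtraction of the mean of each day, samples sharing a number correlated across genes at 0.058, −0.0058 and 0.089 for replicates 1, 2 and 3. Samples with unlike numbers correlated at −0.098 to 0.020. All these values were small, and the numbers were not taken to pair the samples. In a limma fit blocked on replicate number, 2 of all genes tested and 0 of the 10 had an adjusted p under 0.05. An unadjusted p under 0.05 was seen for 3 of the 10 and for 10.9% of all genes tested, and 3 of the 10 were over 2-fold. The 3 with such a p were *Bmp3*, *Bmp4* and *Bmpr1a*. For *Bmp3* the unadjusted p from limma was 0.000406 in this fit (adjusted p 0.14) and 0.0838 without the block. Depth limits *Bmp4*, *Bmp5*, *Bmp6*, *Bmp7* and *Bmpr1b*, which each rest on between 1.9 and 13.8 estimated reads in their lowest sample. The counts of list genes without replicate 2 of day 14 were added after seeing the data.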
